A study of Mus musculus with 6 samples.

Results

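Cholesterol synthesis and sterol regulation were followed through 35 genes, chosen by gene symbol from knowledge of the pathway and found as rows of the table of normalized counts, where 15330 genes were measured. All 35 were present. They comprised 18 enzymes that build cholesterol from acetyl-CoA, 5 genes of the SREBP transcription factors and their control, 7 genes of sterol transport, efflux and storage, and 5 genes of fatty acid synthesis.

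Hearts were dissected from embryos of the mouse at E9.5 (embryonic day 9.5), a stage at which chambers form from the looped heart tube, and their RNA was sequenced. Wild-type hearts (3 libraries) were compared with H2-URI d/d hearts (3 libraries), which lack 373 kb of sequence upstream of Hand2 on both alleles. The deletion was made with CRISPR-Cas9 and is not restricted to the heart, and Hand2 encodes a transcription factor of heart development. The study asked whether Hand2 needs this interval in the heart and what changes downstream. Each group held 2 libraries labelled female (replicates 1 and 2) and 1 labelled male (replicate 3), all of batch 1. No treatment, transgene or Cre driver was named in either group. Strain and number of founder lines are not given in these sources. It is also not stated if hearts were pooled, and p-values thus measure only the spread between libraries, which may be technical. In bulk RNA, fewer cells of a type and less RNA per cell cannot be told apart.

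Cholesterol is made from acetyl-CoA through mevalonate, the branched isoprenoids, squalene and lanosterol. SREBP transcription factors, released from the endoplasmic reticulum when membrane sterol is low, switch on the genes of sterol and fatty acid synthesis, while oxysterols act through liver X receptors (LXR) to raise genes of sterol efflux. In the embryo, cholesterol is also needed to make and receive Hedgehog signals, and inherited defects of the late synthesis enzymes cause malformations.

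Reads recovered from the normalized counts summed to 25583210 to 32043595 per library over the measured genes, which is not the full sequencing depth. Hand2 stood at 3911, 3789 and 4407 normalized counts in the wild-type libraries and at 1025, 1158 and 1163 in the deletion libraries, or −1.85 as a log2 fold change (SE 0.08, limma adjusted p = 1.51e-05). Columns were matched to samples by the code that header and title share, but the files of 4 of the 6 samples are recorded under the other group. Grouped by those file records, Hand2 had a log2 fold change of 0.57 and limma called 0 genes, with 414 at an unadjusted p under 0.05. Every direction below therefore rests on the codes in the titles. Cardiomyocyte markers (Myh6, Myh7, Myl7, Actn2, Tnnt2, Tnni1) stood at 17830 normalized counts or more in every library, as the heart label requires.

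Of the 35 genes, 2 were higher in the deletion and 0 were lower. Abca1, which exports cholesterol from cells, rose 1.52-fold, and Srebf2, which encodes the SREBP of sterol synthesis, rose 1.22-fold. None of the 18 synthesis enzymes passed the test. A gene was called at an adjusted p under 0.05 in limma over all 15330 genes, where 3.05% were called, 1.55% higher and 1.5% lower. At an unadjusted p under 0.05 there were 8 of the 35 genes, 22.9%, beside 21.4% of all genes. The groups did not overlap for 9 of the 35, 25.7%, beside 27.4% of all genes. With both directions together, these shares lie near the background. By direction, 7 of the 35 were higher in every deletion library (Srebf1, Srebf2, Abca1, Abcg1, Npc1, Fasn, Scd2), a share above the 12.9% of all genes. The other 2 of the 35 were lower (Nsdhl, Npc2), a share below the 14.5% of all genes. This split by direction was not tested. For each of the 9 the two-sided exact permutation p was 0.1, the lowest possible with 3 libraries in each group.

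The median log2 fold change was 0.06 over the 35 genes and −0.01 over all genes, with 25 of the 35 above 0 (71.4%, beside 48.4% of all genes). Without wild-type replicate 3 the median of the 35 was 0.01, and 5 of them (Mvd, Fdft1, Sqle, Cyp51, Insig1) turned from above to below 0. With a trend in transcript length and GC content removed the median was 0.04. The genes were measured with little spread: the median SD between libraries of a group was 0.09 on the log2 scale, against 0.13 over all genes. Their 95% intervals lay within a 1.5-fold change in either direction for 32 of 35 genes, among them all 18 enzymes. The exceptions were Abca1, Abcg1 and Scd1.

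**Figure D1:**
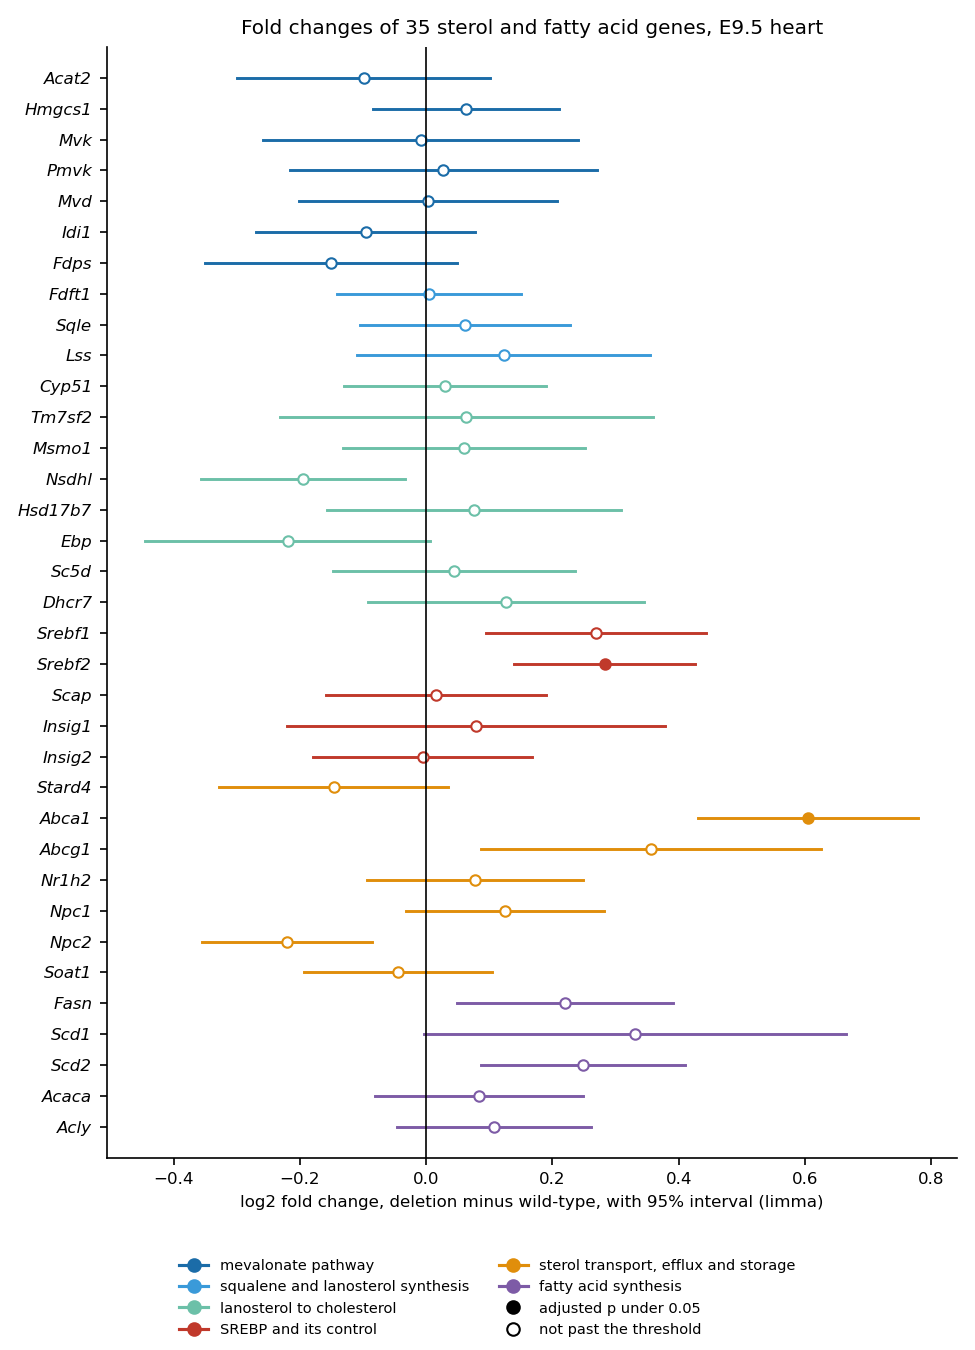
Log2 fold change of each gene (x axis, deletion minus wild-type, from limma on log2(normalized count + 1)) with its 95% interval, ordered and coloured by role. Filled points mark the 2 genes past the threshold, Abca1 and Srebf2; the 18 synthesis enzymes at the top lie between −0.22 and 0.13.

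Set per kb of the longest annotated transcript, the wild-type means spanned from 38.0 normalized counts per kb for Abcg1 to 3786 for Scd2. Scd2, a stearoyl-CoA desaturase, was followed by Hmgcs1 at 1420 and Acly at 1400 normalized counts per kb, and then by Npc2 at 1065. Abca1, at 58.2 normalized counts per kb, was the second lowest. The transcript used by the heart may be shorter than the longest one, which would raise these levels. No gene of the set fell below 212 normalized counts in any library, so none was near the detection limit.

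The mevalonate pathway turns acetyl-CoA into the isoprenoid units from which sterols are built. None of its 7 genes passed the threshold in limma and 0 had an unadjusted p under 0.05; the median log2 fold change was −0.01, with 3 genes above 0 and 4 below. Fdps, which makes farnesyl diphosphate, stood at 2756, 2150 and 2326 normalized counts in wild-type hearts and at 2205, 2183 and 2093 in the deletion. The high value is wild-type replicate 1, and the groups overlapped (log2 fold change −0.15, 95% interval −0.35 to 0.05, adjusted p = 0.368, limma). Idi1, the isomerase that supplies the isoprenoid building blocks, stood at 1152, 1083 and 1237 normalized counts in wild-type libraries, beside 1111, 1017 and 1119 in the deletion. Its groups overlapped too (log2 fold change −0.10, 95% interval −0.27 to 0.08, adjusted p = 0.513, limma). Hmgcs1, which makes the HMG-CoA that feeds the pathway, is the most highly expressed enzyme of the 18 per kb. Its log2 fold change was 0.06, with an interval of −0.08 to 0.21. The remaining genes were the thiolase Acat2 (log2 fold change −0.10), the kinases Mvk (−0.01) and Pmvk (0.03), and the decarboxylase Mvd (0.00).

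The 3 enzymes that join isoprenoids into squalene and close it into lanosterol also stayed under the threshold, with 0 at an unadjusted p under 0.05 and a median log2 fold change of 0.06. Lss, lanosterol synthase, stood at 817, 832 and 662 normalized counts in wild-type libraries and at 784, 818 and 905 in the deletion. Wild-type replicate 3 was the lowest and the groups overlapped (log2 fold change 0.12, 95% interval −0.11 to 0.36, adjusted p = 0.535, limma). Sqle, the squalene epoxidase, stood at 1689, 1713 and 1472 against 1673, 1669 and 1733 normalized counts. It overlapped as well (log2 fold change 0.06, 95% interval −0.11 to 0.23, adjusted p = 0.676, limma). Fdft1, squalene synthase, had a log2 fold change of 0.00.

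Among the 8 enzymes between lanosterol and cholesterol, Nsdhl and Ebp had the smallest p. Nsdhl, a sterol dehydrogenase that takes part in removing the methyl groups at C4, stood at 1020, 937 and 951 normalized counts in wild-type libraries and at 879, 824 and 836 in the deletion. All 3 deletion libraries lay below all wild-type libraries, but the gene did not pass (log2 fold change −0.20, SE 0.07, 95% interval −0.36 to −0.03, adjusted p = 0.160, limma). Ebp, a sterol isomerase, stood at 495, 416 and 488 against 421, 401 and 377 normalized counts. Its groups overlapped through wild-type replicate 2 and deletion replicate 1 (log2 fold change −0.22, 95% interval −0.44 to 0.01, adjusted p = 0.246, limma). Both genes are X-linked, and each group held the same number of female and male libraries. The others had positive log2 fold changes, from 0.03 for the lanosterol demethylase Cyp51 to 0.13 for Dhcr7, the last enzyme of one route to cholesterol. Between these lay Sc5d (0.04), Msmo1 (0.06), Tm7sf2 (0.06) and Hsd17b7 (0.08). Over the 8, 1 gene had an unadjusted p under 0.05 and the median was 0.05. edgeR's quasi-likelihood test and DESeq2, run on reads recovered from the table, also called 0 of the 18 enzymes, with 3.26% and 7.89% of all genes called.

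Of the SREBP genes, Srebf2 rose. It stood at 3834, 3952 and 3519 normalized counts in wild-type libraries (3768 ± 224, SD, n = 3) and at 4654, 4518 and 4570 in the deletion (4581 ± 68.4, SD, n = 3). All deletion libraries lay above all wild-type libraries (log2 fold change 0.28, SE 0.06, 95% interval 0.14 to 0.43, adjusted p = 0.0479, limma). The call was a marginal one: it held in edgeR and DESeq2 but was lost without wild-type replicate 3 (adjusted p = 0.143), without deletion replicate 1 (0.180), replicate 2 (0.170) or replicate 3 (0.151) and with sex as a covariate (0.0649, limma in each case). With a trend in transcript length and GC content removed from each library, its log2 fold change was 0.14 (adjusted p = 0.183, limma), and without an intensity trend in limma the adjusted p was 0.138. Srebf1, whose product favours fatty acid genes, stood at 1125, 1074 and 958 against 1251, 1310 and 1238 normalized counts. Its groups did not overlap but it missed the threshold (log2 fold change 0.27, SE 0.08, adjusted p = 0.0899, limma), and of the 19 alternatives it passed only without wild-type replicate 1 (adjusted p = 0.0495). With the length and GC trend removed its log2 fold change was 0.13 (adjusted p = 0.239, limma). The genes that hold SREBP in or escort it from the endoplasmic reticulum showed log2 fold changes near 0: Scap 0.02, Insig1 0.08 and Insig2 −0.01. Insig1, itself a target of SREBP, ranged from 451 to 673 normalized counts in wild-type and from 559 to 617 in deletion libraries.

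Sterol efflux held the largest difference. Abca1 stood at 611, 615 and 566 normalized counts in wild-type libraries (597 ± 26.8, SD, n = 3) and at 962, 894 and 872 in the deletion (909 ± 46.8, SD, n = 3). The lowest deletion library exceeded the highest wild-type library by far more than the spread within either group (log2 fold change 0.60, SE 0.08, 95% interval 0.43 to 0.78, adjusted p = 0.00487, limma). It was called in 18 of 19 alternative analyses, with a log2 fold change of 0.53 to 0.63 in those; the exception was the recorded file assignment, at −0.19. Abcg1, a partner in efflux to lipoproteins and described here because of its values, stood at 234, 214 and 217 against 324, 272 and 258 normalized counts. Its groups did not overlap, with deletion replicate 1 the highest, but it did not pass (log2 fold change 0.36, SE 0.12, adjusted p = 0.131, limma). Both genes are textbook targets of LXR. Nr1h2, which encodes LXR beta, differed by 0.08 on the log2 scale (limma adjusted p = 0.604). The related gene Nr1h3, which encodes LXR alpha, differed by −0.01 (limma adjusted p = 0.979). Whether LXR has a part in these differences was not tested.

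None of the other transport genes passed the threshold. Npc2, the soluble protein that hands cholesterol out of the lysosome, stood at 3640, 3417 and 3480 normalized counts in wild-type libraries and at 3095, 3047 and 2902 in the deletion. Every deletion library was lower, and the gene missed the threshold (log2 fold change −0.22, SE 0.06, adjusted p = 0.0794, limma). It passed with the length and GC trend removed (−0.25, adjusted p = 0.0431, limma). Npc1, its membrane partner, had a value of the other sign, 0.12 on the log2 scale (limma adjusted p = 0.340), with no overlap between groups. Stard4, a cytosolic sterol carrier, had −0.15, and Soat1, which esterifies cholesterol for storage, had −0.05. The difference in sign between Npc1 and Npc2 was not tested.

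The 5 fatty acid synthesis genes all had positive log2 fold changes, with a median of 0.22. However, 0 passed in limma and 2 had an unadjusted p under 0.05. In a related list of 23 measured fatty acid and lipid synthesis genes, 11 were above 0 and 12 below, with a median of −0.03. Scd2 stood at 20257, 21704 and 19992 normalized counts in wild-type libraries and at 25284, 23616 and 24703 in the deletion. Its groups did not overlap (log2 fold change 0.25, SE 0.07, adjusted p = 0.0911, limma), and it was called by DESeq2 (adjusted p = 0.00622), not by edgeR, and after quantile normalization. Fasn, fatty acid synthase, stood at 6153, 5892 and 5177 against 6517, 6988 and 6518 normalized counts. The groups did not overlap (log2 fold change 0.22, SE 0.08, adjusted p = 0.138, limma), but with the length and GC trend removed the value was 0.03. Scd1, a second desaturase, had the largest value of the 5 at 0.33 with an interval of −0.0029 to 0.66. Acly, which supplies cytosolic acetyl-CoA, had 0.11, and Acaca, which makes malonyl-CoA, 0.08. In wild-type replicate 3, the male wild-type library, all 5 genes were at their lowest of the 6 libraries. Its part in the differences was not tested beyond leaving it out, which put Scd1 at 0.17 and Fasn at 0.15.

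**Figure D2:**
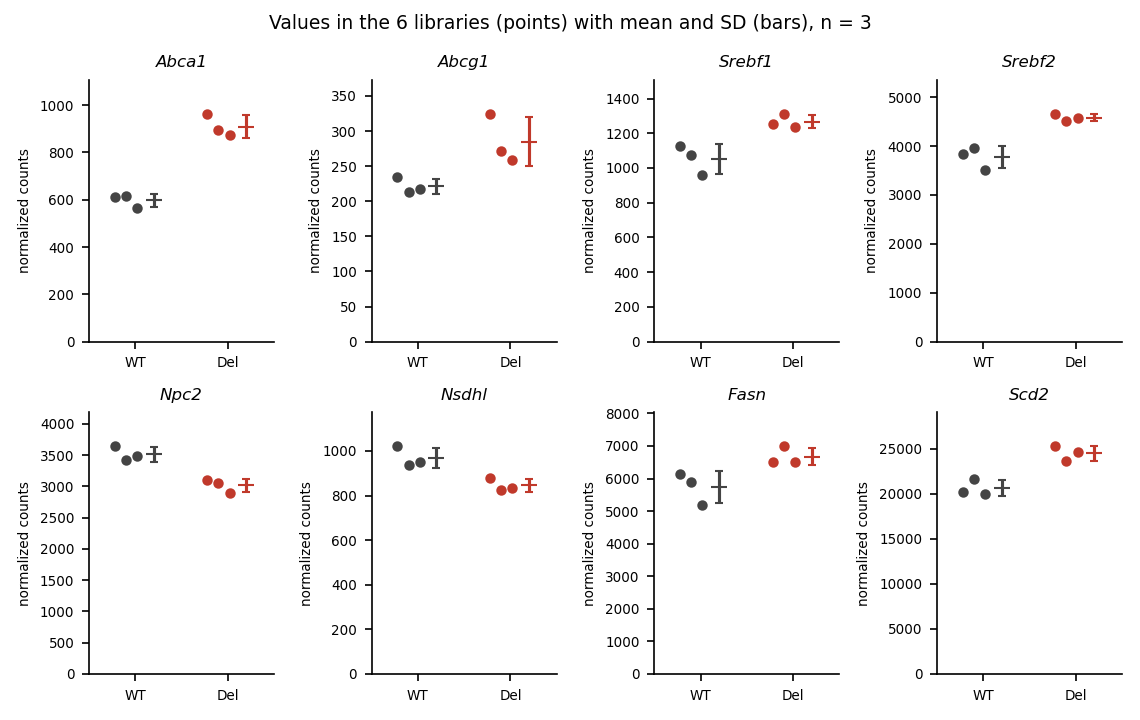
Normalized counts (y axis, from 0) of 8 genes in each library, grouped as wild-type (WT) and deletion (Del); points are the 3 libraries of a group and bars the mean and SD. The 8 genes were taken from the 9 of 35 whose groups did not overlap (25.7%, beside 27.4% of all genes), so no panel shows overlap. Abca1 lies at 566 to 615 against 872 to 962.

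Wild-type replicate 3 was the lowest of the 6 for 16 of the 35 genes. Wild-type replicate 1 was the highest for 11, among them Fdps, Acat2, Mvk and Pmvk of the mevalonate pathway. Deletion replicate 1 was the highest for 12 genes and the lowest for 0. A test of whether the effect of the deletion differed between the sexes, with 1 male library per group, called 0 of the 35 genes in limma (2 at an unadjusted p under 0.05, Lss and Insig1; lowest adjusted p = 0.999) and 0 genes in all, with 651 at an unadjusted p under 0.05.

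**Figure D3:**
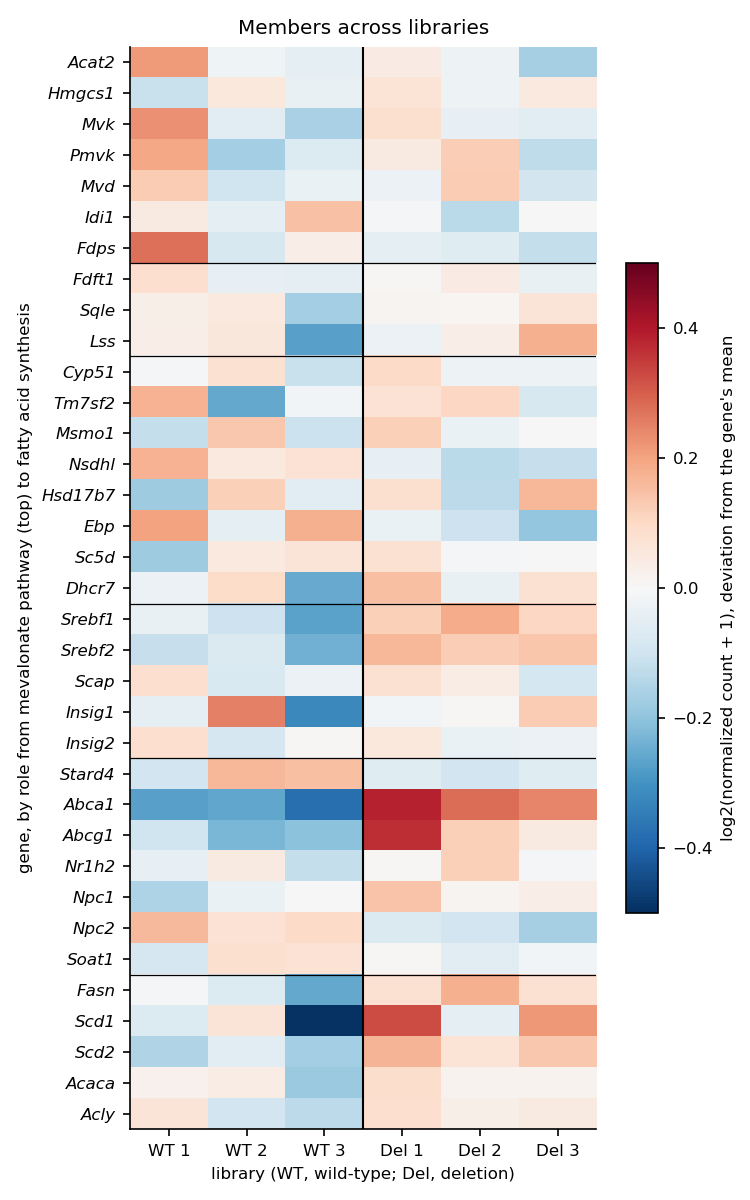
Deviation of each gene (rows, by role from the mevalonate pathway at the top to fatty acid synthesis at the bottom) from its own mean on the log2(normalized count + 1) scale, in the 6 libraries (columns; WT, wild-type; Del, deletion). Abca1 is low in all wild-type and high in all deletion libraries, while the 5 fatty acid genes are lowest in WT 3, with a mean deviation of −0.25.

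The promoters bear on which members share letters that SREBP, LXR or their partners are known to read. RefSeq windows on GRCm38.p6, from 250 bases before to 50 after a start, were matched for 27 of the 35 genes. That build differs from the authors', so the positions serve only to place the sequences. Those of the called genes and of the genes with an LXR-like or SREBP-like match are printed below, 5′ to 3′ on the gene's strand, with matches in capitals.

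Abca1, chr4:53159846-53160145, minus strand: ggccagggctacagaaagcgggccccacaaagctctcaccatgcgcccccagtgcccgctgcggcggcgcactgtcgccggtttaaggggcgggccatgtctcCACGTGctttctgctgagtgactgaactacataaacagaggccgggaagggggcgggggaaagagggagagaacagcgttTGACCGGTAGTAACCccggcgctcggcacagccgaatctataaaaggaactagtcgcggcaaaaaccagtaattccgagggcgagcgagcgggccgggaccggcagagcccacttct
Srebf1, chr11:60210422-60210721, minus strand: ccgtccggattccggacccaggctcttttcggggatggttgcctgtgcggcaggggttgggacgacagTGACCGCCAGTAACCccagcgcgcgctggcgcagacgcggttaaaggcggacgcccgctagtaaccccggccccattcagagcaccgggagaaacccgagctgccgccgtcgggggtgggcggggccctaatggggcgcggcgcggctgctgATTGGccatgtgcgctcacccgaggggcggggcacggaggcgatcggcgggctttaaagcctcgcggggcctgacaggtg
Fasn, chr11:120824498-120824797, minus strand: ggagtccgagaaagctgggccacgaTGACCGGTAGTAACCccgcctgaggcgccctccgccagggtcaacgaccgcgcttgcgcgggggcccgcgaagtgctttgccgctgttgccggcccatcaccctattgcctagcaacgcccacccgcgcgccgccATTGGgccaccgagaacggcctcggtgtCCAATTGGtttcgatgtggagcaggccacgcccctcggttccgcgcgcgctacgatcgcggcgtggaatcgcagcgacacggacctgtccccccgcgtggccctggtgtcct
Hmgcs1, chr13:119690101-119690400, plus strand: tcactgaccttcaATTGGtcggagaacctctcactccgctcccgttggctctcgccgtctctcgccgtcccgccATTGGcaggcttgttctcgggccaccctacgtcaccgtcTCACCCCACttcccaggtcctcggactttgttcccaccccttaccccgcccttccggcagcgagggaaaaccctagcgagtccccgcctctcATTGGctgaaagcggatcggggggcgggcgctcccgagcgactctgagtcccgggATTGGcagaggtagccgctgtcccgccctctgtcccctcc
Srebf2, chr15:82147019-82147318, plus strand: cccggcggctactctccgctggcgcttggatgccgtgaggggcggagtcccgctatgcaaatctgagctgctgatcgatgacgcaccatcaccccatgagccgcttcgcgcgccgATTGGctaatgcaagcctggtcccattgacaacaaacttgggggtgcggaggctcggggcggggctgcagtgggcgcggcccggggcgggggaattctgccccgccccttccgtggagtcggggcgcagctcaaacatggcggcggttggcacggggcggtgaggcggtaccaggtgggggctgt

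The capitals mark 4 motifs, searched on both strands and chosen after the values were seen: the sterol regulatory element TCACNCCAC, the E-box CACGTG, the CCAAT box (reading ATTGG on the other strand), and a direct repeat spaced by 4 bases, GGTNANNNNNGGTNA, the layout LXR binds. The direct repeat was found in 3 of 27 genes, Srebf1, Abca1 and Fasn, and in 0.551% of 10529 measured genes with a window. Further Srebf1 windows at other starts, not printed, held no such repeat, and which start these hearts use was not tested. Abca1 (base 184 of the window) and Fasn (base 26) held the same 15 letters, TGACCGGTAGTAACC, and Srebf1 (base 69) held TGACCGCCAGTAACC. Over all 58 measured genes with such a match, the median log2 fold change was −0.04, with 1 called higher and 1 lower. The sterol regulatory element was found in 1 of 27, Hmgcs1 (1.38% of measured genes). Only this exact pattern was searched, so near matches are not counted and a gene without a match may hold a variant. The printed Srebf2 window holds tcaccccat, which differs from the pattern in its last letter. The CCAAT box, read by the NF-Y partner of SREBP, was found in 22 of 27, including 14 of 15 matched enzymes, against 43.1% of measured genes. The E-box was found in 6 of 27 (11.7%), Abca1 among them, and CATCTG, an E-box that bHLH factors such as Hand2 can bind, in 5 of 27 (13.4%). A match describes the letters and is no evidence of binding.

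A wider list of 88 related lipid genes, of which 86 were measured, had 2 higher and 0 lower, 2.33% called beside 3.05% of all genes. Vldlr, a lipoprotein receptor that also binds reelin, rose from 652, 597 and 744 normalized counts to 1188, 1162 and 1268. The groups were far apart (log2 fold change 0.86, SE 0.09, 95% interval 0.66 to 1.07, adjusted p = 0.00180, limma), a 1.82-fold rise. Rnf145, an endoplasmic reticulum ubiquitin ligase that responds to sterols, rose from 3375, 3288 and 3022 to 4107, 3980 and 4138 (log2 fold change 0.34, adjusted p = 0.0253, limma). The Vldlr call held in every alternative except the recorded file assignment, and the Rnf145 call in 12 of 19 alternatives; among the losses were limma without an intensity trend, wild-type replicate 3 left out and any 1 of the deletion libraries left out, each with 1 related gene still called higher. In lipoprotein uptake and lysosomal release 1 of 14 was called, in SREBP processing and sterol degradation control 1 of 12, and in the 5 other lists none: 0 of 5 further sterol synthesis genes, 0 of 9 measured genes of the isoprenoid and ubiquinone branch, 0 of 17 genes of sterol transfer and efflux, 0 of 6 oxysterol and bile acid enzymes and 0 of 23 measured genes of fatty acid and lipid synthesis. The isoprenoid branch had 8 of 9 values below 0, with a median log2 fold change of −0.17. Unadjusted p was under 0.05 for 1, 3, 4, 0 and 4 genes of these 5 lists in the order given; edgeR called 0 of them and DESeq2 3.

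**Figure D4:**
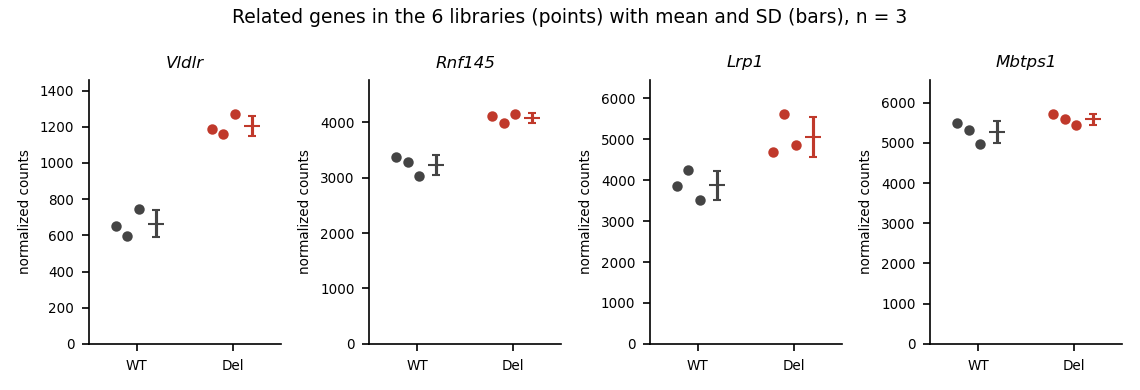
Normalized counts (y axis, from 0) of 4 related genes in each library, as points with the mean and SD of each group as bars. Vldlr and Rnf145 passed the threshold; Lrp1, a lipoprotein receptor (log2 fold change 0.38), and Mbtps1, the protease that starts SREBP release (0.09), did not, and were chosen after their values were seen.

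Markers of other cells moved with the deletion beside these results. The summed level of 6 epicardial and proepicardial markers was 2663 to 3531 normalized counts in wild-type and 4380 to 5723 in deletion libraries, with Krt19 called higher. Krt19, with means of 1299 in wild-type and 2351 in deletion libraries, was the largest single part of both sums. Of the 6, 5 had log2 fold changes above 0, with Aldh1a2 only at 0.08, and Upk3b stood at −0.12. The 6 mesenchymal markers summed to 5765 to 7149 against 2677 to 3755, and 4 were called lower (Twist1, Postn, Col3a1, Msx1). Sox9 (log2 fold change 0.14) and Prrx1 (−0.04) were not called. Col3a1, with a wild-type mean of 4178, made up most of the wild-type sum. Endothelial and endocardial markers summed to 16424 to 17587 against 16970 to 17400, with Kdr called higher and Tek lower. Of the 6 neural and neural crest markers 2 were measured, Ets1, which was called lower, and Tubb3, which was not called. They summed to 2216 to 2424 against 1821 to 1988. Ets1, with a wild-type mean of 2230 beside 107 for Tubb3, made up most of that sum. Sox10, Foxd3, Elavl3 and Pax3 were not among the rows, so the list rests largely on a single gene. No cardiomyocyte, primitive erythroid, macrophage, pharyngeal endoderm or liver and yolk sac marker was called. Of the 6 macrophage markers 2 were among the rows, and their sums were low, at 68.1 to 101 normalized counts against 89.6 to 103. Erythroid sums overlapped widely, at 117090 to 341150 against 82732 to 439580. Pharyngeal endoderm sums were 206 to 898 against 432 to 660. Cldn6 at 429 and Epcam at 263 were the largest parts of the 898, in wild-type replicate 1. All 5 measured pharyngeal markers had log2 fold changes above 0, with a median of 1.01, and 2 had an unadjusted p under 0.05 in limma. The largest was Pax9 at 2.69, from low means of 11.4 in wild-type and 66.9 in deletion libraries (adjusted p = 0.0715, limma). The groups overlapped for each of the 5. Liver and yolk sac sums were 480 to 996 against 255 to 1484. No measured marker was at 0 in any library. The part of these cells in the differences was not tested.

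The fold changes of these genes were related to transcript length: Spearman's rho was 0.57 over the 35 genes and 0.26 over 14849 genes with a length, as a description across genes that share the 6 libraries. With the trend in length and GC content removed from each library, Abca1 stayed called (log2 fold change 0.53, adjusted p = 0.00692, limma), Srebf2 did not, and 3.25% of genes were called. Over all genes that correction left 186 higher and 297 lower, against 237 and 230 without it.

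**Figure D5:**
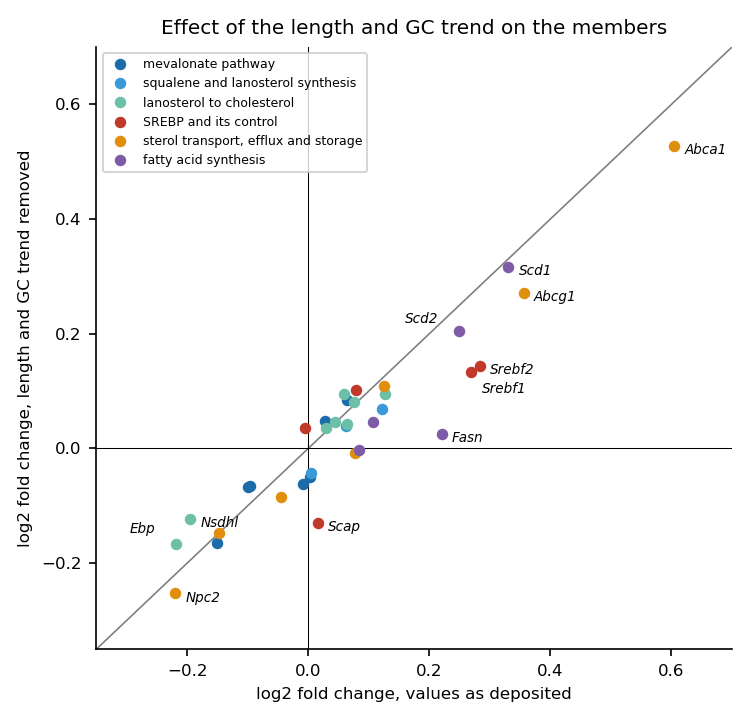
Log2 fold change of the 35 genes from the deposited values (x axis) against the value corrected for length and GC content in each library (y axis), with the line of equality; points are coloured by role. Fasn falls from 0.22 to 0.03 and Srebf2 from 0.28 to 0.14, and Abca1 from 0.60 to 0.53.

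Several counts are uncertain because their transcripts share 50-base words with others. The share was 52.6% for Acaca (with the gene model Gm5182), 45.9% for Acat2 (with Acat3), 21.3% for Idi1, 11.7% for Fdps and 3.03% for Scd1 (with Scd2). Antisense overlap reached 19.9% for Fdft1 (Ctsb), 13.6% for Hmgcs1, 13.2% for Acat2 (Tcp1) and 13.1% for Scap, and no source states which strand setting the counting used.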

How the data were processed

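Libraries were made from 300 ng of total RNA with a stranded poly(A) kit, per the labels' protocols. Tools listed by the submitters' processing notes are STAR 2.7.9a, DESeq2 1.30.1, Subread 2.0.1 with featureCounts, and bcl2fastq 2.20; builds listed are mm39 and GRCm39. Per the file headers, the deposited values are normalized counts, a signal per gene in which the authors scaled reads by library size factors. They were whole multiples of 1 read for 100% of values within a tolerance of 0.01, so reads were recovered.

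limma 3.58.1 (R 4.3.3) was run with an intensity trend on log2(normalized count + 1), for genes with a mean of at least 10 (no gene fell below), with Benjamini-Hochberg adjustment over all 15330 genes. edgeR 4.0.16 and DESeq2 1.42.0 on recovered reads, other pseudocounts, filters and scalings, sex, a block, the recorded files, a length and GC correction and each library left out were alternatives. Transcript lengths came from GENCODE M21 and promoters from RefSeq.

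The members and lists were chosen with earlier results of these data known. Named genes are all members by role, in full where past the threshold or among the 2 smallest p of a role with fewer than 2 calls, and related genes past the threshold.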

Additional observations from a re-analysis of the deposited data

How the results depend on the processing

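Each result was recomputed under 19 alternatives. The call of Abca1 and that of Vldlr held in 18, Srebf2 in 10 and Rnf145 in 12. The alternative without a filter repeats the main fit, since no gene mean fell below 10. Other pseudocounts and a minimum mean of 50 called the same members and related genes. These settings hardly affect genes at such counts, so they add little to the tallies. With the files as recorded, the log2 fold changes were 0.57 for Hand2, −0.19 for Abca1, −0.032 for Srebf2, −0.35 for Vldlr and −0.035 for Rnf145, with 0 members and 0 related genes called higher. Members called higher numbered 1 without the intensity trend, 1 with sex as covariate, 1 with the replicate block and 1 with the length and GC trend removed, which also called 1 member lower (Npc2) and 1 related gene lower. Related genes called higher numbered 1 without the intensity trend, 1 with the replicate block and 4 in DESeq2, which called 2 lower. Leaving out each library gave 1 to 3 members higher and 0 lower, and 1 to 5 related genes higher and 0 to 2 lower; Hand2 ranged from −1.90 to −1.79, Abca1 from 0.56 to 0.63 and Srebf2 from 0.23 to 0.32. Without wild-type replicate 2 there were 5 related genes higher; without wild-type replicate 3 or any deletion library, 1 member and 1 related gene. Across genes, deviations of same-numbered libraries from their group means correlated at −0.03, −0.12 and −0.14. These libraries share a number and a sex label. With 3 libraries a group, such correlations cannot show whether the libraries were paired. The replicate block lost the calls of Srebf2 (adjusted p = 0.105, limma) and Rnf145, and left 96 genes higher and 110 lower, against 237 and 230. No intensity trend left 73 and 73, DESeq2 called 539 and 600, and leaving out a library gave 42 to 466 higher and 61 to 695 lower. Uncalled members changed sign in 0 to 6 cases per alternative other than the recorded files, where 19 members did. The cause of these differences was not tested.

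Precision is limited by 3 libraries a group: for the 3 members whose interval passes 1.5-fold, 2 of them uncalled, larger changes cannot be told from smaller ones. The lowest member value was 212 normalized counts.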
